A study of Citrullus lanatus with 30 samples.

Results

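In watermelon fruit flesh, 81 loci were expressed at 0 and 5 DAP and were at a small fraction of that level by 10 DAP and later. DAP is the labels' unit of age and is usually read as days after pollination. Members were chosen from deposited FPKM values (fragment counts scaled to locus length and to the total of mapped fragments) averaged by group. A member had a mean of at least 10 FPKM at both 0 DAP (replicates 1 and 2) and 5 DAP (replicates 1 to 3), with the 2 means less than 4-fold apart. Its largest mean at 10 DAP (replicates 1 to 3), 20 DAP (replicates 2 and 3) and 30 DAP (replicates 1 to 3) was at most one part in 5 of the smaller early mean. Of 22596 loci in the files, 8736 met the 2 conditions on level, and 81 of those, or 0.927%, also met the condition on loss. The other 8655 are called level-only loci here. Because those flesh libraries chose the members, the stage values from them are a description and carry no test.

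Fruit of Citrullus lanatus subsp. vulgaris cv. 97103 was profiled by RNA sequencing in 30 libraries. Flesh was sampled with 3 libraries at each of 6 ages, named PD at 0 DAP, AP at 1 DAP, SW at 5 DAP, BW at 10 DAP, CT at 20 DAP and RF at 30 DAP. Rind was sampled as R2_RF and R4_RF at 30 DAP and as R4_CT at 20 DAP, with 2 libraries each. A further 3 libraries of 20 DAP flesh, named 5_Aza, carry a treatment label spelled 5-zazcytidine with no dose or duration, and 3 named Mock are 20 DAP flesh labelled as wild type. The labels of 5_Aza and Mock name no cultivar, and the rind libraries give rind as their source but flesh as their tissue, so they are treated as rind. The labels do not say what R2 and R4 stand for, nor whether replicates came from separate fruits, so a p-value here speaks only of the spread among libraries, which may be technical.

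After pollination a cucurbit ovary starts to grow by cell division, and growth then passes mainly to cell expansion before sugars and pigments build up in ripening flesh. Genes used in flowers, ovules and dividing tissue are commonly more active in young than in ripening fruit. 5-azacytidine, the compound that the name 5_Aza was taken to mean, is a cytidine analogue that lowers cytosine methylation of newly made DNA. The files give each locus by its position on sequences named WM97pbV1 and pair it with no gene name or product. Members are therefore identified by chromosome, start and end, no role could be given to any of them, and tissue markers could not be checked. In bulk tissue, fewer cells of a type and less RNA per cell cannot be told apart.

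Read depth per library is unknown because only FPKM values were used, and their sum per library was between 762714 and 886495. Replicates correlated at 0.991 to 0.996 on log2(FPKM + 1). Values of AP replicates 1 and 2 were out of step with their loci (highest correlation with any other library 0.00852 and 0.00772), so AP replicate 3 alone stands for 1 DAP. The 12 libraries of 5_Aza, Mock and rind were written with 6 decimals and the stage libraries with 6 significant digits, and whether they were quantified alike is not known. Levels set side by side across these formats are therefore given without a test.

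Across the flesh series the median of the members' group means was 65.1 FPKM at 0 DAP, 68.2 FPKM in the 1 DAP library and 42.8 FPKM at 5 DAP. It was 4.36 FPKM at 10 DAP, 0.951 FPKM at 20 DAP and 0.356 FPKM at 30 DAP. Over the level-only loci the same medians were 32.4, 32.5, 31.4, 29.5, 27.0 and 27.5 FPKM from 0 to 30 DAP. A member's 10 DAP mean was between 0.654% and 19.8% of its 5 DAP mean, with a median of 13.4%, and the medians were 1.28% at 20 DAP and 0.695% at 30 DAP. The low later level was mostly not reached in 1 step: 76 members had a lower mean at 20 than at 10 DAP, 59 had a lower mean at 30 than at 20 DAP, and 55 did both. These counts take any difference of means, and many means at 20 and 30 DAP were under 1 FPKM. No share of level-only loci was computed beside them. At 10 DAP 76 members still averaged at least 1 FPKM and 23 at least 10 FPKM. In RF, at 30 DAP, the counts were 31 and 2. The word "lost" thus stands for a level below one part in 5, and not for the absence of reads, in most members at 10 DAP.

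**Figure D1:**
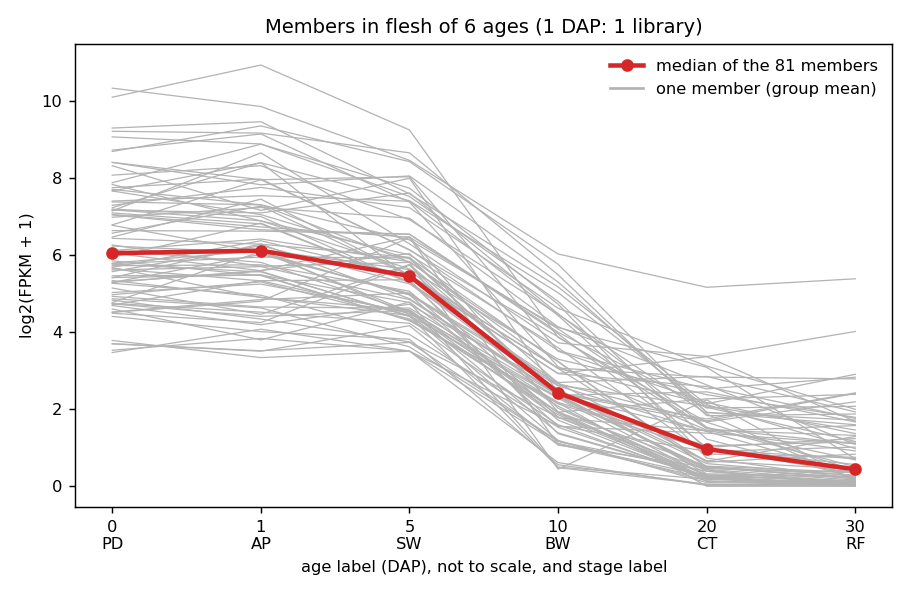
Group mean of each of the 81 members (grey lines) and their median (red) on the log2(FPKM + 1) scale, plotted against the age label in DAP, with 1 library at 1 DAP and 3 at each other age. The median is 65.1 FPKM at 0 DAP and 68.2 FPKM in the 1 DAP library, and is lower at 5 DAP, at 42.8 FPKM. It stands at 4.36 FPKM at 10 DAP and 0.356 FPKM at 30 DAP.

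The most abundant member, taking the smaller of the 0 and 5 DAP means, was chr9:35684709-35685035, a locus of 327 bp. It had 1121, 1011 and 1144 FPKM in the 0 DAP libraries, 1947 FPKM at 1 DAP and 567, 607 and 641 FPKM at 5 DAP. Its 10 DAP libraries had 13.9, 10.8 and 15.9 FPKM, its 20 DAP libraries 1.55, 4.08 and 0.862 FPKM and its 30 DAP libraries 0.231, 0.740 and 0 FPKM. The early and later libraries did not overlap, a gap that the rule required of their means, and the 30 DAP values include a library at 0. Outside the stage series it was at 0 in all R2_RF, R4_RF and Mock libraries and at most 0.306 FPKM in the R4_CT and 5_Aza libraries.

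The member chr2:35618265-35619348 had 589.6, 599 and 585 FPKM at 0 DAP, 572 FPKM at 1 DAP and 397, 389.6 and 415 FPKM at 5 DAP, followed by 46.9, 38.1 and 46.3 FPKM at 10 DAP. At 20 DAP it had 3.36, 2.80 and 1.51 FPKM and at 30 DAP 3.46, 2.47 and 2.07 FPKM, so these 2 ages overlapped. A different order was seen in chr1:6679102-6679743, whose later level was the highest of all members. It had 1292, 1302 and 1262 FPKM at 0 DAP, 923 FPKM at 1 DAP and 381, 346 and 323 FPKM at 5 DAP. Its later values were 62.6, 62.6 and 67.3 FPKM at 10 DAP, 30.9, 33.9 and 39.7 at 20 DAP and 39.7, 38.8 and 43.6 at 30 DAP. In flesh it stayed above 10 FPKM in every library, and it met the rule through its high early level. It was the one member with a mean of 10 FPKM or more in CT, the 20 DAP flesh of the stage series; in the other 20 DAP groups 15 members reached that mean in R4_CT, 10 in 5_Aza and 7 in Mock.

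The other members among the 6 most abundant were chr7:311315-312019, chr10:18368245-18371690 and chr7:2034781-2035125. The first had 399, 395 and 438 FPKM at 0 DAP, 651 FPKM at 1 DAP, 351, 342 and 332 at 5 DAP and 52.99, 57.3 and 49.3 at 10 DAP. The locus on chromosome 10 had 341, 338 and 332 FPKM at 0 DAP, 225 FPKM at 1 DAP, 260.1, 260.4 and 272 at 5 DAP and 37.4, 38.3 and 39.3 at 10 DAP. The last had 346, 341 and 326 FPKM at 0 DAP, 247 FPKM at 1 DAP, 260.1, 264 and 256 at 5 DAP and 11.1, 11.2 and 8.76 at 10 DAP. All 3 were under 4 FPKM in every CT and RF library, the 20 and 30 DAP flesh of the stage series, and all 3 had their 5 DAP libraries below their 0 DAP libraries. Among all members, 17 had a smaller early mean of at least 100 FPKM and 13 had one under 20 FPKM.

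The coefficient of variation between libraries had a median over members of 3.15% at 0 DAP and 3.57% at 5 DAP. The ratio of the smaller early mean to the largest later mean had a median of 6.87 and ran between 5.04 and 63.8. The rule required a ratio of at least 5, so this gap describes the choice of members and carries no test. With 1 FPKM added to both means, the steepest ratios were those of chr7:2042902-2043252 and chr9:35684709-35685035. The locus on chromosome 7 had 288, 335 and 329.9 FPKM at 0 DAP, 252, 259 and 250.0 at 5 DAP and 3.89, 4.42 and 4.78 at 10 DAP. It was at 0 in all 12 libraries of 5_Aza, Mock and rind. It lies 7776 bp from chr7:2034781-2035125, with 1 other locus between them.

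At the edge of the condition on loss, the nearest members inside were chr10:27180180-27181843, with a ratio of 5.04 (69.0 and 13.7 FPKM), and chr1:5102897-5105754, with a ratio of 5.04 (12.4 and 2.46 FPKM). The nearest loci outside were chr5:31770222-31776164, with a ratio of 4.99 (13.4 and 2.70 FPKM), and chr10:28205687-28207111, with a ratio of 4.96 (255 and 51.5 FPKM). In each pair of values the smaller early mean comes before the largest later mean. The number of members moves with this limit: 21 loci met a limit of one part in 10 and 234 a limit of one part in 3.

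Within the early window, 67 members had a higher mean at 0 than at 5 DAP and 14 had a higher mean at 5 DAP. The ratio of the 0 DAP to the 5 DAP mean had a median of 1.48 over members and 1.04 over level-only loci, and the rule limited it to less than 4-fold either way. The member furthest towards 5 DAP was chr1:3260387-3264019, with 23.6, 21.6 and 20.2 FPKM at 0 DAP, 26.9 FPKM at 1 DAP and 84.2, 83.6 and 91.5 FPKM at 5 DAP. Its 10 DAP libraries had 1.37, 0.903 and 1.11 FPKM, so its highest stage preceded its low level directly. The member furthest towards 0 DAP was chr9:1950726-1951344, with 148, 139.5 and 148 FPKM at 0 DAP, 127 FPKM at 1 DAP, 38.6, 33.7 and 42.5 at 5 DAP and 3.34, 2.43 and 1.65 at 10 DAP. Its 30 DAP libraries were all at 0. These 2 loci show the extremes that a rule on means of 2 ages admits.

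Replicates that the rule left out of its own groups gave the same picture. In PD replicate 3, every member was between 0.816 and 1.13 times its mean in PD replicates 1 and 2, and 79 of 81 were at 10 FPKM or more; the other members there were chr10:25603040-25604095 and chr9:735126-739030, at 9.91 and 9.66 FPKM. In CT replicate 1, all 81 members were at most one part in 5 of their value in PD replicate 3, against a background of 9.72% of level-only loci. The lowest ratio of PD replicate 3 to CT replicate 1 among members was 6.30, and 2 members were at 0 in CT replicate 1. These libraries belong to groups that the rule used, so the count shows that replicates of a group repeat and is not a new condition. Rows of PD replicate 3 were realigned by their correlation with PD replicate 1, so its match was partly built in. Level-only loci leave out, by definition, every locus that met the loss.

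The 1 DAP library, from an age that the rule did not use, placed 35 members above both their 0 and 5 DAP means (background 29.6% of level-only loci), 32 between them (39.7%) and 14 below both (30.7%). No member was missing at 1 DAP: values ran between 9.11 and 1947 FPKM, and the lowest was 0.553 times the smaller of the 0 and 5 DAP means. With 1 library there is no replicate check. This library also listed its locus starts unlike all other libraries, and whether it was quantified like the 0 and 5 DAP libraries is not known. A 1 DAP value at least 2-fold above the larger of the 0 and 5 DAP means was found in 4 members, against 1.38% of level-only loci. These were chr1:35456729-35457526, at 400.3 FPKM and 2.85 times the larger mean, chr1:35459427-35460224, chr11:4242904-4245521 and chr10:8395573-8397268. The locus on chromosome 11 had 337 FPKM at 1 DAP beside 151, 142 and 153 FPKM at 0 DAP and 39.3, 45.8 and 39.5 at 5 DAP. The locus on chromosome 10 had 67.1 FPKM at 1 DAP beside 27.6, 24.8 and 26.3 FPKM at 0 DAP and 21.9, 20.6 and 23.7 at 5 DAP. In all 4 the 1 DAP library lay above every 0 and 5 DAP library.

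Not all members were highest at 10 DAP among the later ages. The largest later mean was at 10 DAP for 75 members, at 20 DAP for 4 and at 30 DAP for 2. The clearest of the 4 was chr3:2722998-2728085, with 0.291, 0.409 and 0.380 FPKM at 10 DAP, 3.57, 3.49 and 4.12 at 20 DAP and 0.162, 0.0855 and 0.0230 at 30 DAP. Its 20 DAP libraries of the stage series lay above those of 10 and 30 DAP, yet far below the 55.7, 55.4 and 53.96 FPKM it had at 5 DAP. In the other 20 DAP groups, Mock, 5_Aza and R4_CT, this locus was at 0 in every library, so its 20 DAP level was seen in CT alone. The second was chr11:4242904-4245521, with 5.48, 8.56 and 5.77 FPKM at 10 DAP and 11.6, 8.67 and 7.55 at 20 DAP, where the ages overlapped, and 1.94, 2.08 and 2.60 FPKM at 30 DAP. With CT replicate 1 added, its 20 DAP mean of 9.27 FPKM exceeded one part in 5 of its 5 DAP mean. In chr2:1277794-1278303 and chr3:4948813-4950563, the other 2 of the 4, the 10 and 20 DAP libraries also overlapped.

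The 2 members highest at 30 DAP were chr1:35456729-35457526 and chr1:33829586-33831441. The first had 11.8, 12.8 and 11.9 FPKM at 10 DAP, 8.14, 9.77 and 10.03 at 20 DAP and 15.3, 13.8 and 16.3 at 30 DAP, so its lowest age was 20 DAP and the 3 ages did not overlap. The other had 2.75, 2.74 and 2.88 FPKM at 10 DAP, 3.81, 3.25 and 4.38 at 20 DAP and 4.06, 3.81 and 4.78 at 30 DAP, where 20 and 30 DAP overlapped. Both stood well above these levels in Mock.

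**Figure D2:**
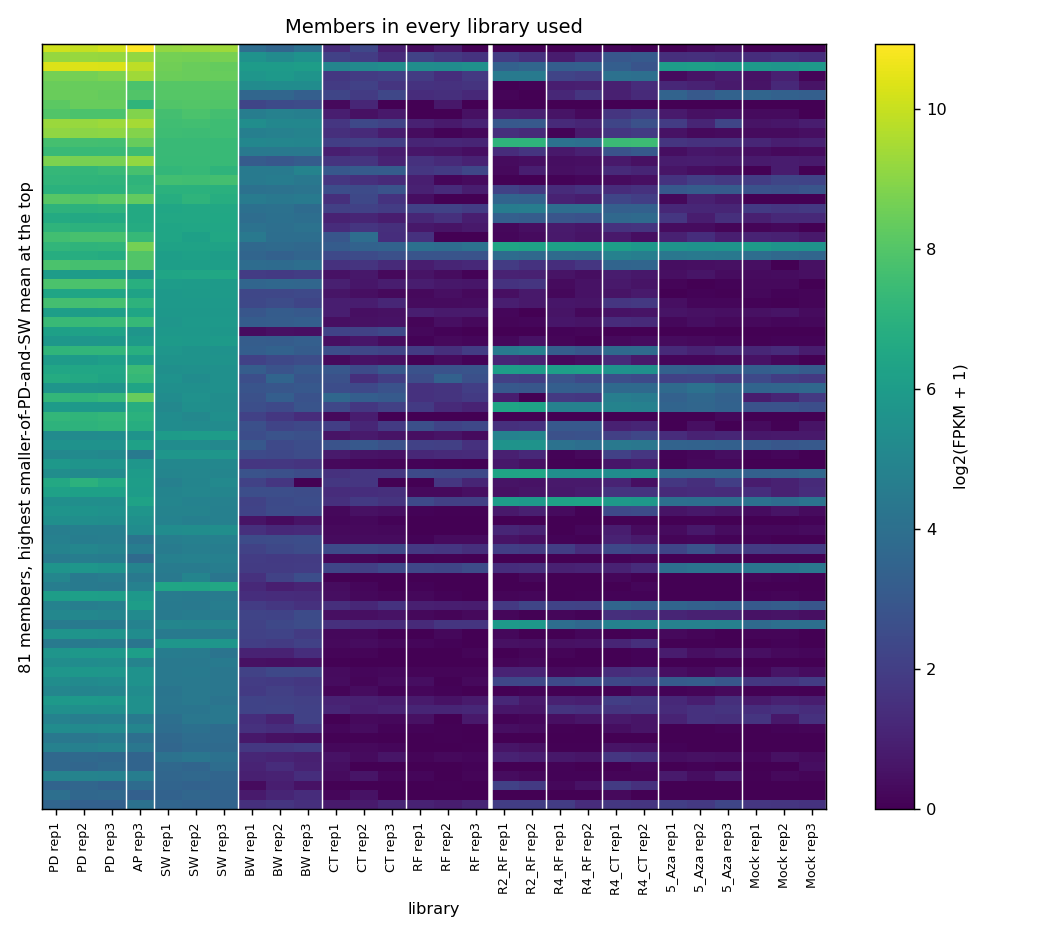
Level of the 81 members (rows, ordered by the smaller of their 0 and 5 DAP means) in each of 28 libraries (columns) as log2(FPKM + 1), with the stage libraries left of the thick line and rind, 5_Aza and Mock right of it. Most rows are dark from 10 DAP on and in all groups to the right, and a minority of rows is bright again in rind, such as the 5 members at or above their smaller early mean in R4_CT.

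The samples outside the stage series were then read for the same members. A group mean above one part in 5 of the smaller early mean was found for 14 members in R2_RF, 9 in R4_RF, 15 in R4_CT, 14 in 5_Aza and 9 in Mock. The background of level-only loci above that mark was 91.3% in R2_RF, 92.9% in R4_RF, 95.5% in R4_CT, 92.6% in 5_Aza and 91.0% in Mock. Thus most members were also low in 20 DAP flesh of the other set and in 20 and 30 DAP rind. Under 1 FPKM in all 12 of these libraries were 24 members, against 0.220% of level-only loci. The median member mean was 0.809 FPKM in R2_RF, 0.537 FPKM in R4_RF, 1.68 FPKM in R4_CT, 0.524 FPKM in 5_Aza and 0.294 FPKM in Mock.

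Counted over all 81, the share of members called higher in 5_Aza than in Mock flesh was close to that of all loci. Among tested loci alone it was larger for members. Of the 81, 16 rose and 1 fell (limma on log2(FPKM + 1), adjusted p under 0.05 over 15552 loci), 17 did not pass and 47 were under the filter of 1 FPKM in at least 3 libraries. Of the 34 tested members 47.1% were higher and 2.94% lower, against a background of 29.5% and 13.3% of tested loci. On one base, 19.8% of the 81 members and 20.3% of all loci in the files were called higher, and 1.23% of the members and 9.13% of all loci lower. By at least 2-fold on that scale 3 of the 34 tested members rose, against 4.09% of tested loci. The 1 that fell did so by less, against 0.186% of tested loci lower by at least 2-fold. Another scaling of the libraries, by the median of ratios, gave 11 that rose and 3 that fell. Over all 81 members, filter aside, the median log2 difference of 5_Aza minus Mock was 0.11, beside 0.04 over all loci. A member that passes the filter only through its higher group had to differ, which can raise the share among tested members, so the counts are also given over all 81.

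The largest change was in chr11:4242904-4245521, which had 9.50, 11.5 and 9.44 FPKM in 5_Aza and 0.769, 1.22 and 2.54 FPKM in Mock. The groups did not overlap, and the log2 fold change was 2.21 ± 0.21 (SE; limma adjusted p = 8.50e-06). Its 5_Aza libraries overlapped those of 20 DAP flesh of the stage series, which had 11.6, 8.67 and 7.55 FPKM in the other number format. Next came chr5:30880986-30889181, with 7.69, 8.25 and 6.51 FPKM in 5_Aza and 2.37, 2.17 and 2.88 FPKM in Mock, again without overlap (log2 fold change 1.29 ± 0.12, limma adjusted p = 5.95e-06). Here the stage series had 20.4, 20.7 and 19.3 FPKM at 5 DAP and 0.300, 0.116 and 0.245 at 20 DAP, both sets of 20 DAP libraries thus lying below 5 DAP.

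The member chr8:20549475-20552091 had 26.9, 27.3 and 26.2 FPKM in 5_Aza and 12.7, 15.1 and 14.9 FPKM in Mock (log2 fold change 0.87 ± 0.07, limma adjusted p = 2.92e-06). No other member had a 5_Aza mean that reached its smaller early mean, here 21.9 FPKM at 0 DAP, none did so in Mock, and the background was 50.6% of level-only loci in 5_Aza and 48.5% in Mock. The most abundant member in both groups, chr1:6679102-6679743, had 64.9, 68.1 and 63.3 FPKM in 5_Aza and 59.5, 53.2 and 59.6 FPKM in Mock. Its log2 fold change was 0.19 ± 0.05, with a limma adjusted p = 0.0151. The 1 member that fell was chr5:5163711-5167513, with 1.31, 1.27 and 1.22 FPKM in 5_Aza and 2.59, 2.32 and 2.48 FPKM in Mock (log2 fold change -0.61 ± 0.11, limma adjusted p = 9.95e-04). That locus and the one on chromosome 8 were singled out after their values were seen. Of the 17 called members, 7 had a higher group mean under 5 FPKM.

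In 20 DAP rind, R4_CT, more members were above 20 DAP Mock flesh than below it. Of the 81, 42 were higher and 7 lower, 6 did not pass and 26 were under the filter of 1 FPKM in at least 2 of 9 libraries (limma, adjusted p under 0.05 over 16859 loci). The background was 43.3% of tested loci higher and 34.4% lower. On one base, 51.9% of the 81 members and 32.3% of all loci in the files were called higher, and 8.64% of the members and 25.7% of all loci lower. Of the 55 tested members, 30 were higher and 5 lower by at least 2-fold, against 17.2% and 10.1% of tested loci. The median log2 difference over all 81 was 0.47, beside 0.01 over all loci. Members were chosen for low 20 DAP flesh, and Mock is also 20 DAP flesh, with a member median of 0.294 FPKM. Most thus had little room to be called lower. A member that passed the filter only through R4_CT could only be called higher. The direction of these counts was therefore partly set by the choice of members and the filter. Many of these differences lay at low levels: 27 of the 49 called members had a higher group mean under 5 FPKM. The sample numbers of the rind libraries come in a block after those of Mock, and tissue and this block cannot be told apart.

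The member that stood furthest apart was chr3:27624977-27634417, the longest member at 9441 bp. It had 175 and 178 FPKM in R4_CT and 1.27, 0.891 and 1.02 FPKM in Mock, with a log2 fold change of 6.43 ± 0.08 (SE; limma adjusted p = 4.35e-16). Its R4_CT libraries lay between those of young flesh, which had 208, 199 and 197 FPKM at 0 DAP and 170.2, 170.0 and 166 at 5 DAP, and far above those of later flesh. In later flesh it had 32.5, 31.3 and 30.6 FPKM at 10 DAP, 3.14, 3.18 and 3.10 at 20 DAP and 1.20, 1.34 and 1.17 at 30 DAP. Second was chr7:311315-312019, with 15.8 and 14.95 FPKM in R4_CT and 0.451, 0.919 and 0.108 FPKM in Mock (log2 fold change 3.49 ± 0.18, limma adjusted p = 1.27e-09). Unlike the locus on chromosome 3, it was in R4_CT far under its 5 DAP flesh level of 351, 342 and 332 FPKM.

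Among the 7 lower members, chr1:33829586-33831441 had 1.08 and 1.63 FPKM in R4_CT and 18.2, 17.4 and 18.9 FPKM in Mock (log2 fold change -3.03 ± 0.12, limma adjusted p = 3.18e-11). The member chr1:6679102-6679743 had 8.60 and 6.18 FPKM in R4_CT and 59.5, 53.2 and 59.6 FPKM in Mock (log2 fold change -2.81 ± 0.11, limma adjusted p = 4.07e-11). In both, all rind libraries of either age lay below all later flesh libraries of 20 and 30 DAP. The 2 nearby loci of chromosome 7 named above had unlike values here: chr7:2034781-2035125 had 0.972 and 1.44 FPKM in R4_CT and 10.9, 9.37 and 8.95 FPKM in Mock (log2 fold change -2.29 ± 0.16, limma adjusted p = 1.10e-08), while chr7:2042902-2043252 was at 0 in all of these libraries.

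Within R4 rind, more members were called lower than higher at the later age. Between R4_RF at 30 DAP and R4_CT at 20 DAP, 5 members were higher and 33 lower, 17 did not pass and 26 were not tested; the background was 25.6% of tested loci higher and 27.0% lower (limma, adjusted p under 0.05). Over the 81 members and over all loci in the files, 6.17% and 19.1% were called higher, and 40.7% and 20.1% lower. Of the 55 tested members, 1 was higher and 18 lower by at least 2-fold, against 3.10% and 7.83% of tested loci. The median log2 difference over all 81 was -0.25, beside 0 over all loci. A member that passed the filter only through R4_CT could only be called lower here, so part of this direction came with the filter. Of the 38 called members, 20 had a higher group mean under 5 FPKM. This comparison shares the R4_CT libraries with the one against Mock, so a low or high R4_CT value enters both, with opposite sign.

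The largest difference was again in chr3:27624977-27634417, with 16.6 and 15.1 FPKM in R4_RF and 175 and 178 FPKM in R4_CT (log2 fold change -3.40 ± 0.09, limma adjusted p = 3.01e-12). The member chr11:4242904-4245521 had 2.51 and 2.46 FPKM in R4_RF and 24.4 and 22.7 FPKM in R4_CT, with a log2 fold change of -2.81 ± 0.34 and a limma adjusted p = 7.88e-05. With a pseudocount of 0.1 FPKM the limma adjusted p of this locus was 0.0502, which ends the call. In the other direction, chr9:28826826-28827098 had 7.38 and 7.34 FPKM in R4_RF and 1.02 and 1.18 FPKM in R4_CT (log2 fold change 1.99 ± 0.16, limma adjusted p = 1.65e-07). It is a locus of 273 bp that had 131, 133 and 142 FPKM at 0 DAP in flesh. The member chr7:27703737-27704866 had 68.9 and 73.3 FPKM in R4_RF and 46.2 and 44.04 FPKM in R4_CT, a smaller difference (log2 fold change 0.64 ± 0.08, limma adjusted p = 2.27e-05).

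The 2 rind groups of 30 DAP also differed. In R2_RF against R4_RF, 25 members were higher and 11 lower, 19 did not pass and 26 were not tested (background 31.4% of tested loci higher and 38.4% lower; limma, adjusted p under 0.05). Over the 81 members and over all loci in the files, 30.9% and 23.4% were called higher, and 13.6% and 28.7% lower. Of the 55 tested members, 11 were higher and 3 lower by at least 2-fold, against 9.37% and 11.1% of tested loci. The median log2 difference over all 81 was 0.15, beside 0 over all loci. A member that passed the filter only through R2_RF could only be called higher, and one that passed only through R4_RF could only be called lower. Of the 36 called members, 20 had a higher group mean under 5 FPKM. Without R4_RF replicate 1 the number of lower members was 7. The R4_RF libraries are shared with the comparison before.

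The locus chr3:27624977-27634417 led here too, with 139 and 139 FPKM in R2_RF and 16.6 and 15.1 FPKM in R4_RF (log2 fold change 3.05 ± 0.09, limma adjusted p = 2.18e-12). This locus was thus high in R4 at 20 DAP and in R2 at 30 DAP, and low in R4 at 30 DAP and in all flesh libraries from 20 DAP on. Next was chr11:4990041-4990331, with 10.6 and 9.95 FPKM in R2_RF and 1.07 and 0.845 FPKM in R4_RF (log2 fold change 2.52 ± 0.14, limma adjusted p = 1.19e-09). That locus, of 291 bp, had 271, 249.9 and 282 FPKM at 0 DAP and 22.6, 19.9 and 20.7 at 10 DAP in flesh and was at 0 in every Mock library. Lower in R2_RF were chr9:28826826-28827098, with 1.90 and 2.05 FPKM in R2_RF and 7.38 and 7.34 FPKM in R4_RF (log2 fold change -1.49 ± 0.16, limma adjusted p = 1.54e-06), and chr2:27490263-27490481. The last had 3.19 and 3.0 FPKM in R2_RF and 5.86 and 4.37 FPKM in R4_RF (log2 fold change -0.57 ± 0.18, limma adjusted p = 0.0137), and with median-of-ratios scaling its limma adjusted p was 0.0531, which ends the call.

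**Figure D3:**
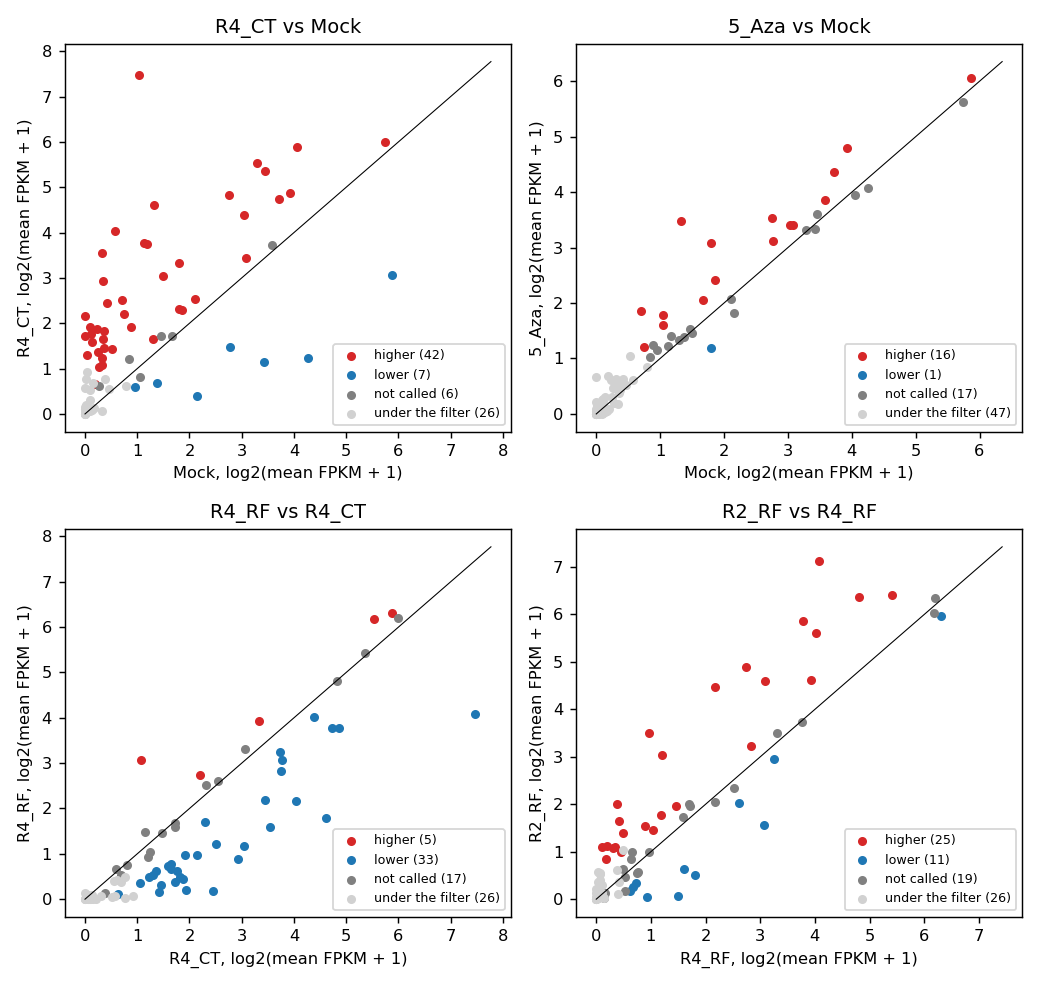
Mean level of each of the 81 members as log2(mean FPKM + 1), with the first group of each comparison on the vertical axis and the second on the horizontal axis; colours give the limma call at adjusted p under 0.05 and the line marks equal levels. In R4_CT against Mock 42 members are called higher and 7 lower, and in R4_RF against R4_CT 5 are called higher and 33 lower.

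A few members were as high in rind as in young flesh. At or above the smaller early mean were 7 members in R2_RF (background 45.2% of level-only loci), 3 in R4_RF (49.6%) and 5 in R4_CT (48.9%). They made up 8 members in at least 1 rind group (59.0%) and 3 in all of them (36.3%). The values cross the 2 number formats and are given without a test. The 3 members high in all rind groups were chr7:27703737-27704866, chr4:21498966-21501259 and chr11:25646677-25648977.

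The first of these had 67.03 and 62.7 FPKM in R2_RF, beside 42.9, 44.2 and 43.9 FPKM in 5 DAP flesh and 5.67, 5.76 and 6.25 FPKM in 30 DAP flesh. The locus on chromosome 4 had 83.3 and 84.1 FPKM in R2_RF, 41.1 and 42.5 FPKM in R4_RF and 38.7 and 41.7 FPKM in R4_CT, beside 30.8, 31.6 and 30.7 FPKM in 5 DAP flesh and 4.54, 4.15 and 4.24 FPKM in 30 DAP flesh. The locus chr11:25646677-25648977 had 64.1 and 59.1 FPKM in R2_RF, 77.99 and 79.04 FPKM in R4_RF and 60.6 and 55.6 FPKM in R4_CT, beside 30.5, 27.4 and 26.7 FPKM in 5 DAP flesh and 4.33, 3.19 and 3.18 FPKM in 30 DAP flesh. In the order named, the 0 DAP means were 87.3, 38.0 and 41.6 FPKM, and the 1 DAP library had 174, 63.7 and 77.0 FPKM. The first thus stayed below its 0 DAP level in all rind groups, and the other loci did not. In all 3, every rind library lay above every flesh library of 10 DAP or older, Mock and 5_Aza included. All 3 were higher in R4_CT than in Mock, with log2 fold changes of 2.24 ± 0.08, 1.92 ± 0.07 and 1.83 ± 0.08 (SE; limma adjusted p = 6.09e-12, 2.30e-11 and 1.63e-10). Between R4_RF and R4_CT, chr4:21498966-21501259 did not pass (log2 fold change 0.06 ± 0.08, limma adjusted p = 0.602).

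Another 4 members reached their smaller early mean in R2_RF but not in all rind groups. In chr11:18245193-18246240 the R2_RF libraries had 86.2 and 77.1 FPKM, against 26.8 and 27.3 FPKM in R4_RF, a log2 fold change of 1.56 ± 0.08 (limma adjusted p = 1.32e-09). In chr2:1277794-1278303 they had 47.4 and 48.3 FPKM, against 16.2 and 14.4 FPKM in R4_RF (log2 fold change 1.59 ± 0.09, limma adjusted p = 2.04e-09). In chr8:20549475-20552091 they had 57.5 and 56.3 FPKM, against 13.8 and 11.6 FPKM in R4_RF (log2 fold change 2.08 ± 0.10, limma adjusted p = 2.68e-10). These 3 loci shared the order of R2_RF above R4_RF without overlap. The fourth, chr1:35456729-35457526, had 81.4 and 78.7 FPKM in R2_RF and 73.3 and 71.04 FPKM in R4_RF, a difference that did not pass (log2 fold change 0.15 ± 0.11, limma adjusted p = 0.260). In flesh its 0 DAP mean was 140 FPKM and its 1 DAP library had 400.3 FPKM, both above its rind libraries. In the other 3 the R2_RF mean was above the 0 DAP mean.

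**Figure D4:**
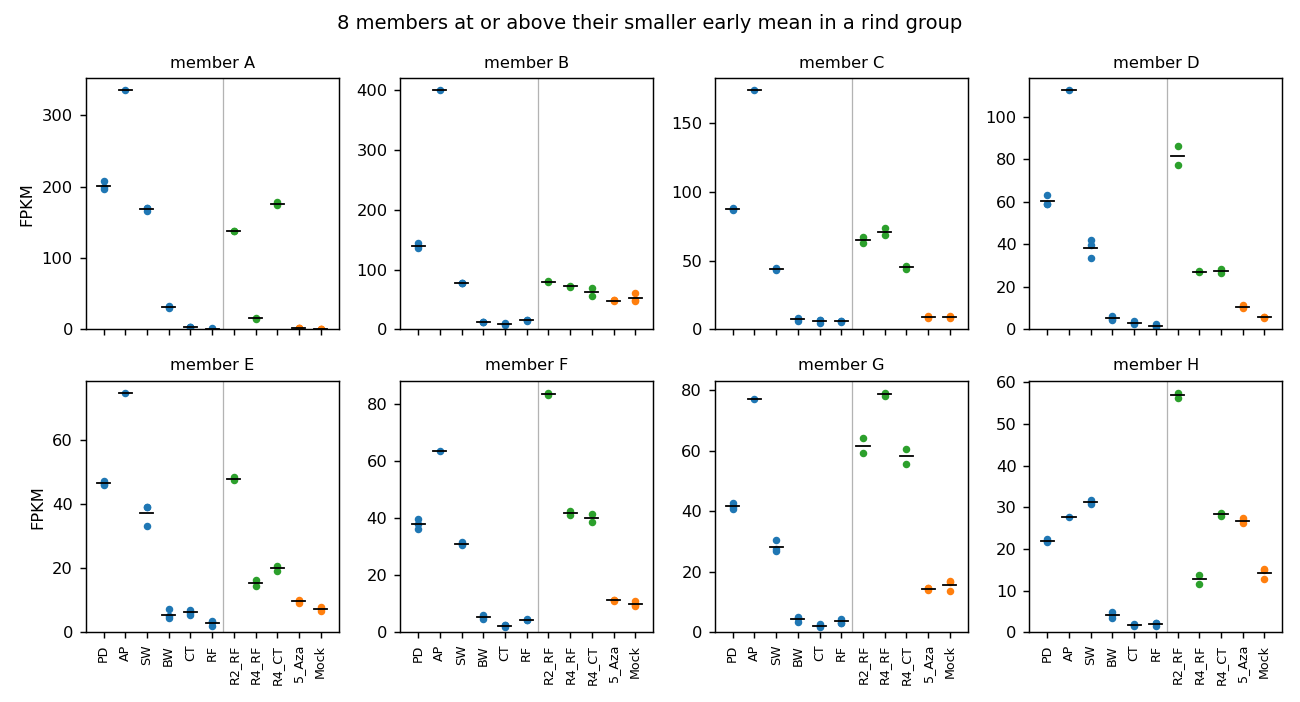
FPKM of the 8 members at or above their smaller early mean in a rind group, by group, with a point per library and a bar at the mean; blue is flesh of the stage series, green rind and orange 5_Aza and Mock flesh. Members A to H are chr3:27624977-27634417, chr1:35456729-35457526, chr7:27703737-27704866, chr11:18245193-18246240, chr2:1277794-1278303, chr4:21498966-21501259, chr11:25646677-25648977 and chr8:20549475-20552091, and panel A shows the means of 139 FPKM in R2_RF, 15.9 FPKM in R4_RF and 176 FPKM in R4_CT.

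Mock and CT are both 20 DAP flesh, written in different formats, and some members differed between them. The Mock mean was at least 2-fold above the CT mean and at least 5 FPKM in 9 members, against 9.67% of level-only loci. The most abundant of the 9 was chr1:35456729-35457526, with 60.3, 49.2 and 47.98 FPKM in Mock and 8.14, 9.77 and 10.03 FPKM in CT. In chr1:33829586-33831441 the values were 18.2, 17.4 and 18.9 FPKM in Mock and 3.81, 3.25 and 4.38 FPKM in CT. In chr11:25646677-25648977 they were 16.6, 13.5 and 16.8 FPKM in Mock and 1.83, 2.64 and 2.08 FPKM in CT. The members and the background cannot be compared directly here. The median Mock mean was 0.294 FPKM over members and 28.8 FPKM over level-only loci, so fewer members could reach 5 FPKM. The rule also held the CT means of members low. Whether the format, the plants or the mock treatment moved with these values was not tested.

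The members' weight in the transcriptome followed the same course. Together they held 1.43% to 1.45% of all FPKM in the 0 DAP libraries, 1.53% in the 1 DAP library and 0.865% to 0.873% at 5 DAP. The share was 0.0929% to 0.0960% at 10 DAP, 0.0197% to 0.0221% at 20 DAP and 0.0177% to 0.0181% at 30 DAP. In rind it was 0.0922% to 0.0951% in R2_RF, 0.0515% to 0.0524% in R4_RF and 0.0770% to 0.0811% in R4_CT. In the other 20 DAP flesh it was 0.0395% to 0.0409% in 5_Aza and 0.0315% to 0.0338% in Mock. The shares of R2_RF and 10 DAP flesh were alike, but the median member mean was 0.809 FPKM in R2_RF and 4.36 FPKM at 10 DAP. In R4_CT the members summed to 703 and 680 FPKM, and chr3:27624977-27634417 alone had a mean of 176 FPKM there. The largest contributions at 0 DAP were those of chr1:6679102-6679743, with a mean of 1285 ± 20.8 FPKM, and chr9:35684709-35685035, with 1092 ± 71.1 FPKM (SD, n = 3 each).

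**Figure D5:**
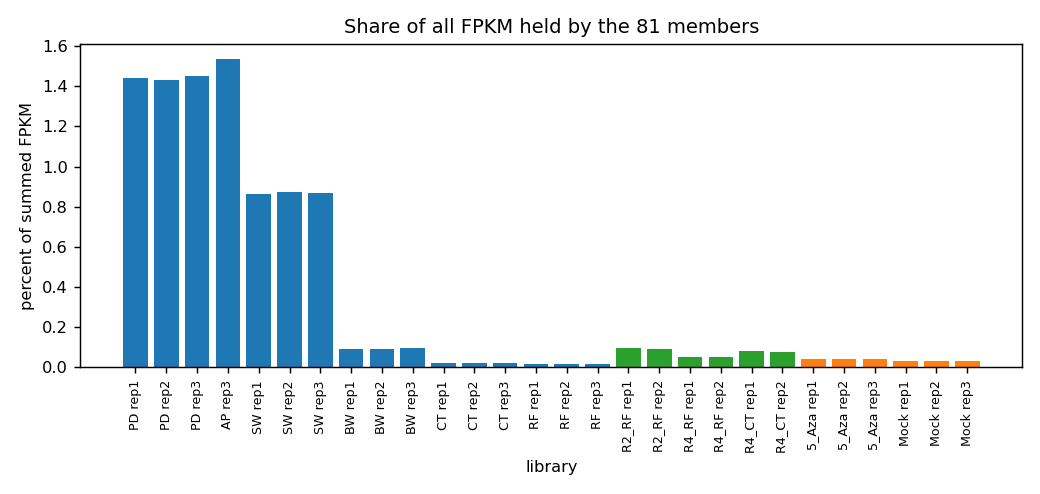
Percent of the summed FPKM of each of 28 libraries held by the 81 members, with flesh of the stage series in blue, rind in green and 5_Aza and Mock flesh in orange. The bars stand at 1.43% to 1.45% at 0 DAP and at 0.0177% to 0.0181% at 30 DAP.

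Loci that were lost at neighbouring ages gave a scale for the members' behaviour in the other samples. One set, of 429 loci, was at 10 FPKM or more at 0 DAP and at most one part in 5 of that from 5 DAP on. The other, of 160 loci, held its level to 10 DAP and was at most one part in 5 of it at 20 and 30 DAP. Higher in R4_CT than in Mock by limma were 51.9% of the members, 24.5% of the loci lost by 5 DAP and 92.5% of the loci lost by 20 DAP, beside 32.3% of all loci. Higher in 5_Aza than in Mock were 19.8% of the members, 12.1% of the loci lost by 5 DAP and 45.0% of those lost by 20 DAP, beside 20.3% of all loci. Tested in that comparison were 34 of 81 members, 113 of 429 loci and 101 of 160 loci. Of the tested ones 47.1%, 46.0% and 71.3% were higher, beside 29.5% of all tested loci. Lower in R4_RF than in R4_CT were 40.7%, 20.7% and 84.4% in the same order, beside 20.1% of all loci. A locus under the filter could not be called, the sets differ in how many passed it, and the differences between the sets were not tested. Each set was also chosen for low levels in 20 DAP flesh, the tissue and age of Mock.

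The members were spread over the genome. All lay on the 11 chromosomes and none on an unplaced sequence, with 14 on chromosome 1, 11 each on chromosomes 2 and 9, 7 each on chromosomes 3 and 10, 6 each on chromosomes 6, 7, 8 and 11, 5 on chromosome 5 and 2 on chromosome 4. As a share of the loci of a chromosome that met the conditions on level, they were between 0.444% on chromosome 5 and 1.36% on chromosome 1. Their median length was 1651 bp, from start to end, against 3135 bp for level-only loci and 2347 bp for all loci. At 400 bp or less were 10 members, or 12.3%, against 3.58% of level-only loci and 7.66% of all loci.

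Members were direct neighbours in 2 cases. On chromosome 1, chr1:30811499-30814907 and chr1:30814912-30815091 are 4 bp apart. The longer had 74.6, 73.9 and 74.1 FPKM at 0 DAP, 29.7, 30.9 and 30.2 at 5 DAP and 5.23, 5.14 and 4.86 at 10 DAP. The other, of 180 bp, had 196, 215 and 211 FPKM at 0 DAP, 84.6, 73.7 and 90.6 at 5 DAP and 20.6, 14.2 and 14.3 at 10 DAP. At that distance reads of one locus may have been counted in the other, which the files cannot show.

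The other neighbours, chr1:35456729-35457526 and chr1:35459427-35460224, are 1900 bp apart, and both are 798 bp long. In flesh they had a like course, with 77.6, 76.9 and 76.97 FPKM for the first and 68.2, 72.9 and 67.2 FPKM for the second at 5 DAP. The second had 18.9, 20.1 and 19.5 FPKM in 5_Aza and 13.8, 11.98 and 10.8 FPKM in Mock and rose (log2 fold change 0.64 ± 0.08, limma adjusted p = 1.03e-04), whereas the first had 49.00, 47.05 and 48.6 FPKM in 5_Aza and 60.3, 49.2 and 47.98 FPKM in Mock and did not pass (log2 fold change -0.11 ± 0.08, limma adjusted p = 0.256). In R4_RF the second had 12.9 and 12.4 FPKM, against 26.9 and 24.3 FPKM in R4_CT (log2 fold change -0.96 ± 0.11, limma adjusted p = 5.04e-06), and the first did not pass in that comparison (log2 fold change 0.21 ± 0.11, limma adjusted p = 0.144). The difference between the 2 loci was itself not tested. If they are near-identical copies, reads may have been split between them, and their values are uncertain to that extent.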

How the data were processed

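Total RNA was extracted with Trizol and treated with DNase I, per the labels' protocols, and sequenced on an Illumina HiSeq 2500, per the series' design text. Reads were handled with fastp, HISAT2 and SAMtools 1.5, per the submitters' processing notes. Quantifier, annotation and genome build, beyond the names of sequences, were not stated there or in the labels. Per the file headers, each deposited table holds FPKM, which the authors had thus already scaled to length and library total; raw counts were not used here and depth is unknown, so no counting intervals are given. FPKM values near 0 are the least precise.

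Files were matched on locus. AP replicate 3 listed locus starts lower by 1 than the other libraries, so its starts were raised by 1 before matching. In it, 5 loci listed more than once were left out, and 22576 loci were matched once. In PD replicate 3, 11643 values below a stray record were moved by 1 row, which brought their correlation with PD replicate 1 to 0.993 from 0.120. AP replicates 1 and 2 were left out, and 50 loci each of AP replicate 3 and CT replicate 1 were left out where blocks of 50 rows correlated under 0.8 with libraries of like age. No column was left unmapped. Groups came from sample titles and ages from the labels. Replicates were not duplicates: at least 99.99% of loci above 0 differed between any 2.

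Log2(FPKM + 1) values, computed here from the deposited FPKM, were tested with limma 3.58.1 (trended, robust empirical Bayes; R 4.3.3). Loci entered where the number of libraries at or above 1 FPKM matched the size of the smallest group or exceeded it, with Benjamini-Hochberg adjustment over all of them and a threshold of 0.05. 5_Aza against Mock used 6 libraries (4 residual degrees of freedom), and the rind comparisons used 9 libraries of Mock and rind with a shared spread (5 residual degrees of freedom). Log2 fold changes on this scale understate changes of low loci. Tables were handled with Python 3.11.15 and pandas 2.3.3. Alternatives were other limits of the rule, other pseudocounts, no filter, median-of-ratios scaling, 1 fit of 12 libraries, a replicate block and leaving out each library.

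The text names the 6 members with the highest smaller early mean, the 2 with the largest ratio of early to later level, the 2 nearest the limit on each side, direct neighbours, and for each comparison up to 2 called members each way by log2 fold change, among those with groups that do not overlap and a higher mean of at least 5 FPKM; other loci were named after their values were seen. Members, lists and tests were chosen with earlier results of these data known. Lists of gene products could not be applied, since the files pair no locus with a product.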

Additional observations from a re-analysis of the deposited data

How the results depend on the processing

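The number of members depended on the limits of the rule: it was 21 with a loss to one part in 10 and 234 with a loss to one part in 3, against 81. It was 120 at 5 FPKM, 68 at 20 FPKM, 68 with median-of-ratios scaling and 82 with all usable libraries, of which 80 were shared. For 5_Aza against Mock, 1 member was lower, and 3 were with median-of-ratios scaling, 2 in 1 fit of 12 libraries and 1 to 2 when each library was left out in turn. Leaving out each library gave 11 to 14 members higher in that comparison (main value 16), 30 to 41 higher and 5 to 7 lower for R4_CT against Mock (42 and 7), 5 to 7 higher and 23 to 33 lower for R4_RF against R4_CT (5 and 33), and 19 to 25 higher and 7 to 11 lower for R2_RF against R4_RF (25 and 11). The lone library of a group was then taken to vary like the other groups. Of 42 recomputed log2 fold changes of named members, 40 kept their call and direction and 2 lost the call, as given with those loci. Same-numbered libraries deviated together weakly or not at all. Their correlations were -0.05 to 0.06 between 5_Aza and Mock and 0.01 to 0.16, all positive, among Mock and rind. The numbers were not taken to pair samples in the main fits. With the replicate block, members lower in 5_Aza were 2, and the other counts were 15 higher in 5_Aza, 41 and 6 for R4_CT against Mock, 6 and 33 for R4_RF against R4_CT, and 25 and 11 for R2_RF against R4_RF. Depth is unknown, so levels near 0 FPKM could not be bounded. The cause of these shifts was not tested.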
